A study of Mus musculus with 35 samples.

Results

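The genes described here are 46 mouse genes that serve DNA replication and cell division, from the MCM helicase and its loading factors to the cyclins, mitotic kinases, spindle proteins and the proliferation marker Mki67. They were listed by symbol, matched to the Ensembl gene rows of the RNA-seq tables, and kept where the mean over all 35 libraries was at least 1 FPKM (fragments per kilobase of transcript, scaled to the mapped fragments of the library). Of the 46 genes, 45 passed, out of 11354 genes that passed the same limit among 47069 gene identifiers. The limit fell between the spindle checkpoint kinase Ttk, whose mean was 0.931 FPKM and which was left out, and the replication licensing factor Cdc6, whose mean was 1.09 FPKM. Without the vehicle libraries 41 of the 45 would have passed. Cdc6, Kif11, Kif20a and Cenpf (means without vehicle of 0.898, 0.679, 0.785 and 0.821 FPKM) passed only with these libraries. A level below vehicle in other groups is therefore partly fixed by the limit for these 4. Counts of genes called lower against vehicle are also given for the 41. Medians, signs, unadjusted counts and counts of genes without overlap of libraries are given for the 45 alone.

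Bone marrow-derived macrophages (BMDMs) from C57BL/6 mice were grown for 5 to 7 days with 20% fetal bovine serum and 30% L929-conditioned medium, a source of the growth factor M-CSF, and were rested overnight without serum before treatment, per the study's methods. All groups shared this culture. The cells came from wild-type (WT) mice or carried the label AMPKa1-/-, the catalytic α1 subunit of the energy sensor AMPK, encoded by Prkaa1; the deleted part of the gene, the cells in which it was deleted and the ages of these particular animals were not given in the sources used here. The study's methods name mixed-sex cohorts aged 8 to 15 weeks and count cultures from individual mice as replicates. In each genotype there were 6 treatments of 24 h: vehicle (DMSO), 100 nM dexamethasone (Dex, a synthetic glucocorticoid), 100 ng/ml lipopolysaccharide (LPS), LPS + Dex, 1 µg/ml DAMPs (damage-associated molecular patterns, whose composition the labels do not give), and DAMPs + Dex. Every group had 3 libraries apart from WT LPS, which had 2 (replicates 2 and 3; replicate 1 was not analysed here). The labels do not say what a replicate number marks, so p-values measure the spread between these libraries.

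Dividing cells pass through G1, S phase, G2 and mitosis. E2F transcription factors switch on the genes for nucleotide supply and DNA synthesis as cells leave G1, when D-type and then E-type cyclins free E2F from the retinoblastoma family of pocket proteins. Genes for G2 and mitosis are switched on later, through B-MYB, FOXM1 and the MuvB complex, and most of them are silent in resting cells. Bone marrow-derived macrophages divide in response to M-CSF while they mature, and inflammatory activation with LPS is known to stop this division. The RNA was taken from whole cultures, so fewer cells with a transcript and less of it per cell cannot be told apart.

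The labels were checked first against the genes they should move. Prkaa1 was not lower in the libraries labelled AMPKa1-/-. In vehicle it stood at 15.9, 11.8 and 15.3 FPKM in WT and at 14.8, 16.5 and 15.4 FPKM in the libraries labelled AMPKa1-/-, and over all treatments it lay between 8.59 and 26.1 FPKM in WT (median 15.3) and within 9.05 to 24.00 FPKM (median 15.1). The ranges overlapped, and no comparison of the genotypes within a treatment called Prkaa1 in the limma fit (log2 differences from -0.29 to 0.33). The deleted part of Prkaa1 was not given, so a total over the gene may not test the label, and the genotype is given throughout as the label states it. The treatments went with their labels in the glucocorticoid targets Fkbp5 and Tsc22d3 and in the LPS-induced genes Il1b and Cxcl10. Fkbp5 stood at 198 to 431 FPKM in every library with Dex and at 0.792 to 6.39 FPKM in every library without it. Tsc22d3 rose from between 48.3 and 54.6 FPKM in vehicle to between 667 and 899 FPKM in Dex. Il1b stood at 11233 to 16653 FPKM and Cxcl10 at 324 to 1302 FPKM in LPS, against at most 34.6 and 5.97 FPKM in vehicle and DAMPs. In LPS + Dex Il1b stood at 38.2 to 292 FPKM. Cxcl10 stood at 0.260 to 2.40 FPKM there, against 0.189 to 1.77 FPKM in vehicle, so it does not mark LPS in LPS + Dex. DAMPs called none of these control genes in either genotype.

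The cultures carried macrophage markers in every library: Lyz2 was the most abundant of the 8 on the list, with 10344 to 35906 FPKM, and Csf1r, the M-CSF receptor, stood at 197 to 684 FPKM. The list moved with LPS, which lowered 5 of the 8 and raised 2 in each genotype: its sum was 21052 to 32521 FPKM in vehicle and 12951 to 22888 FPKM in LPS. Markers of blood progenitors, red cell precursors and T cells were low. The 6 blood progenitor markers (Kit, Cd34, Flt3, Gata2, Myb, Gfi1b) summed to at most 3.27 FPKM, with the highest sums in LPS (1.75 to 3.27 FPKM), the 5 erythroid markers to at most 0.392 FPKM and the 4 T cell markers to at most 0.385 FPKM. The summed B cell markers moved with the genes described here, from 61.6 to 75.5 FPKM in vehicle to 1.26 to 4.47 FPKM in LPS, with 11.5 to 27.5 FPKM in Dex and 29.3 to 45.1 FPKM in DAMPs. Outside LPS and LPS + Dex, nearly all of that sum was Ighm, which codes for the IgM heavy chain: it stood at 60.9 to 74.5 FPKM in vehicle, 10.3 to 26.9 FPKM in Dex and 27.9 to 43.5 FPKM in DAMPs, and at 0.0945 to 1.94 FPKM in LPS, where the other markers made up more of the sum. The defining gene Ms4a1 was listed at 0 in 29 of the 35 libraries (at most 0.0489 FPKM) and Cd79a reached at most 0.821 FPKM. The summed neutrophil markers were highest in LPS + Dex (329 to 1200 FPKM, led by S100a8, against 126 to 161 FPKM in LPS and at most 48.3 FPKM elsewhere). In LPS they were led by Camp, an antimicrobial peptide gene, with 92.5 to 133 FPKM against 0.125 to 2.25 FPKM in vehicle and 23.8 to 52.1 FPKM in LPS + Dex (log2 fold changes with LPS 6.30 and 5.67). S100a9, Ngp and Ltf reached at most 16.4, 7.56 and 6.20 FPKM, and the defining genes Ly6g, Elane and Mpo reached at most 0.200, 0.475 and 0.218 FPKM in any library. Of the 5 dendritic cell markers, led by Itgax, the sum was 339 to 677 FPKM in LPS and 18.2 to 78.0 FPKM in Dex. Ccr7, the chemokine receptor of migrating dendritic cells, rose with LPS from at most 0.0602 FPKM in vehicle to between 37.5 and 109.9 FPKM (5.98 and 5.92) and fell with Dex added to LPS (-5.16 and -5.19). Cd209a was listed at 0 in all 35 libraries, and Zbtb46 stood at no more than 0.686 FPKM. The 6 stromal markers, led by Col1a2, summed to 1.16 to 24.7 FPKM. The sum was 11.9 to 24.7 FPKM in WT Dex and 2.99 to 4.52 FPKM in Dex with the label AMPKa1-/-, and it was 18.3 FPKM in WT vehicle replicate 1 against 1.49 and 9.76 FPKM in replicates 2 and 3. In the libraries labelled AMPKa1-/- it was 1.16 to 2.77 FPKM in vehicle and 7.08 to 11.01 FPKM in LPS. Dex added to DAMPs raised 2 of the 3 stromal markers tested in WT. The part these markers have in the changes below was not tested.

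Libraries held 15837203 to 31955298 fragments, computed from the deposited values, so 1 fragment on a transcript of 1 kb was worth 0.0313 to 0.0631 FPKM. The libraries differed in ways the groups do not explain. WT vehicle replicate 1 had a lower median over the 45 genes (2.65 on the log2(FPKM + 1) scale) than replicates 2 and 3 (3.48 and 3.24), and WT DAMPs replicate 2 had a higher one (3.03) than replicates 1 and 3 (2.04 and 1.98). Replicate 2 had the highest median of its group in every group apart from WT LPS and WT DAMPs + Dex. The WT and AMPKa1-/- Dex libraries stood apart over the whole transcriptome: the genotypes differed in 26.5% of all genes in Dex and in 0.432% to 1.06% of them in the other 5 treatments. The part this has in the comparisons with Dex was not tested.

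In vehicle, Pcna, the sliding clamp of DNA polymerases, was by far the most abundant of the genes, with 502, 408 and 531 FPKM in WT and 376, 549 and 491 FPKM in the libraries labelled AMPKa1-/-. Over all libraries its mean was 191 FPKM, and the next in order were Mcm3 (28.97 FPKM), Mcm7 (18.1), Top2a (15.8), E2f1 (13.7), Cdk1 (11.8), Mcm6 (10.3) and Cenpa (10.2). FPKM is a level per transcript length, so these levels can be set side by side. In their role groups the most abundant pairs were Pcna and Mcm3 (DNA synthesis), E2f1 and Cdk1 (control), Aurkb and Mad2l1 (mitotic kinases and checkpoint), Cenpa and Tpx2 (spindle and kinetochore), and Pttg1 and Cdc20 (exit from mitosis). Of the 46 genes, 13 share exon bases with a neighbour, 6 of them over at least 10% of their exon length: Gins2 with Gse1 (67.3%), Kif20a with Cdc23 (29.3%), Ube2c with Tnnc2 (22.8%), Ccne2 with Ints8 (17.4%), Ccna2 with Exosc9 (12.5%) and Prc1 with Rccd1 (11.1%). Processed pseudogenes named for Pcna, Tyms, Ccnb1 and Ccnb2 are annotated. Reads could have been split or shared in these cases, and their values are less certain.

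The promoters of the genes are shown for those whose 250 bases before the RefSeq start (build GRCm38.p6) held the most different motifs of the cell cycle among the genes of S phase and among the others, with ties broken by mean FPKM, which brought in the proliferation marker Mki67. Capitals mark matches, on either strand, to CCAAT (the NF-Y box), to TTTGAA or TTCGAA (forms of the CHR element of late cell cycle genes), and to TTTCCCGC, TTTCGCGC, TTTGCCGC or TTTGGCGC (forms of the E2F site). In Mcm6 and Mcm5 a TTTCGCGC and a TTTGGCGC on opposite strands overlap and form 1 run of capitals.
Mcm6, chr1:128359706-128359955, minus strand: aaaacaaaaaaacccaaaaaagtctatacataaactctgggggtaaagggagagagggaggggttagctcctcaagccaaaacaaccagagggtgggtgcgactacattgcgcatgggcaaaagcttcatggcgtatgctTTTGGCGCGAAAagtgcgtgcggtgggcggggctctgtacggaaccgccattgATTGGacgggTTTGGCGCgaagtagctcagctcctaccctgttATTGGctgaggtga
Mcm5, chr8:75109259-75109508, plus strand: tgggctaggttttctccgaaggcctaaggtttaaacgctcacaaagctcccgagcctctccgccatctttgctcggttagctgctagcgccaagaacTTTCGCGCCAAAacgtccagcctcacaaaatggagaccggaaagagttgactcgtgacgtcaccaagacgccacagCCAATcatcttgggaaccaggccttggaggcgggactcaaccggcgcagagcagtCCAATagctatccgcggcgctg
Top2a, chr11:99024190-99024439, minus strand: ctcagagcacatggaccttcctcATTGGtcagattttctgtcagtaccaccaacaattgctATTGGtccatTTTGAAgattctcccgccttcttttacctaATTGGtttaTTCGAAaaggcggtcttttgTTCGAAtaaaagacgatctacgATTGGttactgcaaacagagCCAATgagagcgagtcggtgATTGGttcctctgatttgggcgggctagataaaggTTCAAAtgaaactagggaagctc
Cdk1, chr10:69352913-69353162, minus strand: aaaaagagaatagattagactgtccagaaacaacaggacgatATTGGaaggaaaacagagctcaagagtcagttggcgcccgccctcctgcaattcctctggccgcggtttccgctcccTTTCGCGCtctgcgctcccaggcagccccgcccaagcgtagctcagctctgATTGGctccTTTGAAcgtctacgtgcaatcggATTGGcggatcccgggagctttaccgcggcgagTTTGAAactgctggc
Mki67, chr7:135716380-135716629, minus strand: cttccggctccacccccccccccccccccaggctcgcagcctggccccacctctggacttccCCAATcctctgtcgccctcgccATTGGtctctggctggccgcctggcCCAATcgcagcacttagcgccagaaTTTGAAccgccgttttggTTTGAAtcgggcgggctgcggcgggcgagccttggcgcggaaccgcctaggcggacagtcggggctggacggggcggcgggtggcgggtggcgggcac
Of these windows, that of Cdk1 shares 26 bases with annotated exons and the others share none. Mcm7 also held 3 different motifs, but its window lies wholly in annotated exons and is not printed. A promoter was found for 37 of the 45 genes, the others being Aurkb, Ccna2, Ccne2, Foxm1, Gins2, Kif20a, Mcm4 and Tpx2. CCAAT stood in 26 of 37 (70.3%) against 36.6% of the 8639 tested genes with a promoter, a CHR form in 10 of 37 (27.0%) against 12.2%, and an E2F form in 6 of 37 (16.2%) against 3.69%. The E2F forms lay in Mcm5, Mcm6, Mcm7, Cdc6, Hells and Cdk1, so in 5 of 14 genes of S phase (35.7%) and 1 of 23 others (4.35%); the CHR forms lay in 2 of 14 (14.3%; Mcm2 and Mcm7) and 8 of 23 (34.8%; Top2a, Mki67, Cdk1, Ccnb2, Cdc20, Ube2c, Bub1b and Kif11). The median GC content was 59.6% in the genes' windows and 60.0% in all. A match describes letters in the window and was not tested as a binding site.

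Across treatments the genes were highest in vehicle. Of the 45, 40 had their highest group mean in a vehicle group and 29 their lowest in an LPS group, with the remaining lowest means in LPS + Dex (8), DAMPs + Dex (4), Dex (3) and DAMPs (1). The exceptions to the first were Mki67, Ccne1, Tyms and Pttg1, highest in LPS, and Mcm3, highest in LPS + Dex. Cdc6, Kif11, Kif20a and Cenpf, which pass the limit only with vehicle, are among the 40, and their place there is partly fixed by the limit. The counts of highest and lowest means have no share of all genes beside them. The median over the 45 genes was 2.65 to 3.48 in the WT vehicle libraries and 3.19 to 3.72 in those labelled AMPKa1-/-, on the log2(FPKM + 1) scale. It was 1.25 to 1.88 and 1.27 to 1.72 in LPS, 1.63 to 2.59 and 1.59 to 2.08 in LPS + Dex, 2.15 to 2.55 and at most 2.19 in Dex, 1.98 to 3.03 and 2.28 to 2.32 in DAMPs, and 1.89 to 2.30 and 1.84 to 2.14 in DAMPs + Dex. Within each genotype every treated library lay below every vehicle library of that genotype, apart from WT DAMPs replicate 2. The median of all 11354 genes stayed between 3.51 and 4.07 in every library.

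**Figure D1:**
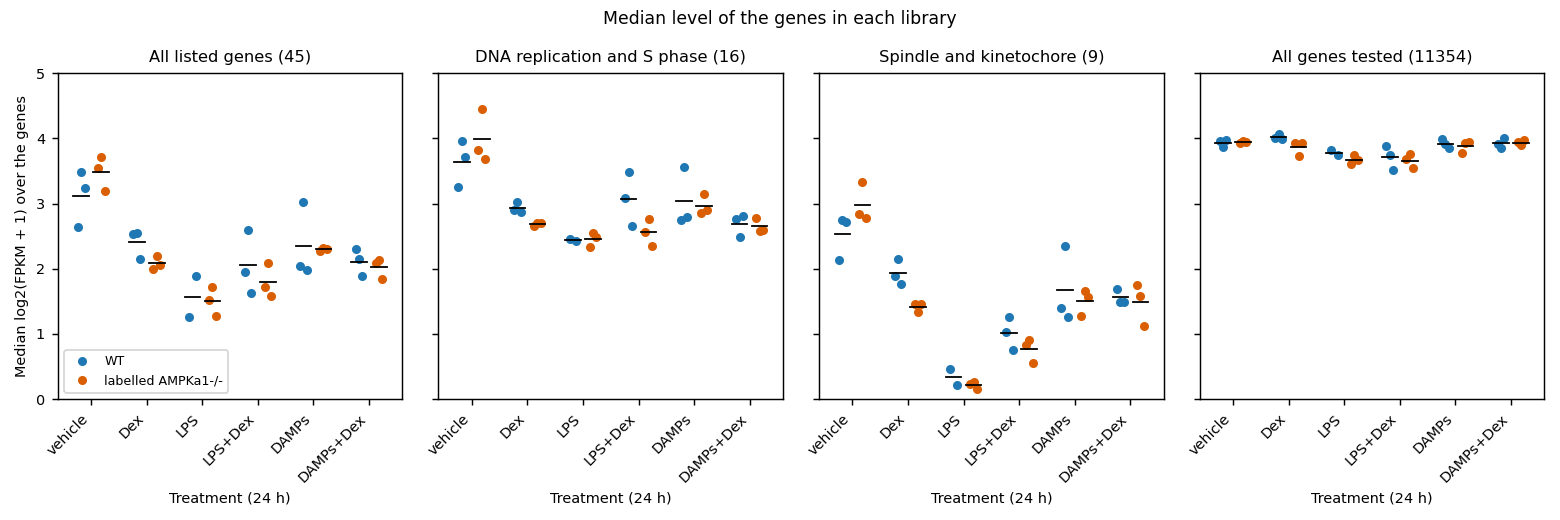
Median log2(FPKM + 1) in each of the 35 libraries over all 45 genes, the 16 genes of DNA replication and S phase, the 9 spindle and kinetochore genes and all 11354 genes tested, by treatment; points are libraries, colours the genotype label, bars the group means. The 45 genes have their highest medians in vehicle (2.65 to 3.72) and their lowest in LPS (1.25 to 1.88), the spindle genes fall nearest to 0 in LPS, and the median of all genes stays between 3.51 and 4.07.

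LPS lowered most of the program, mitotic genes among them. In WT, 39 of the 45 genes were lower after LPS and 4 were higher, against 35.8% and 19.9% of all genes called lower and higher (55.7% in either direction). In the libraries labelled AMPKa1-/- 39 were lower and 2 higher, against 44.1% and 20.2% (64.3%; limma on log2(FPKM + 1), Benjamini-Hochberg adjusted p under 0.05 over all 11354 genes). The 39 lower genes were the same in both genotypes, and 35 of them were among the 41 genes that pass the limit without vehicle. The median log2 fold change of the 45 genes was -1.38 and -2.03, against -0.19 and -0.30 for all genes tested. The libraries did not overlap for 39 and 40 lower genes, against 45.6% and 49.3% of all genes. Because a constant of 1 is added before the logarithm, these fold changes understate those of genes with low FPKM. An order of genes by fold holds on that scale alone. In mean FPKM the spindle genes Kif23 (4.03 in WT vehicle, 0.0643 in WT LPS) and Nusap1 (6.27 and 0.237) fell by a larger factor than the kinase Aurkb (12.1 and 2.03).

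The 19 genes of mitotic kinases, spindle and mitotic exit include the largest falls on the log2(FPKM + 1) scale. Cenpa, the histone variant that marks centromeres, stood at 21.8, 29.6 and 27.1 FPKM in WT vehicle and at 0.393 and 1.30 FPKM in WT LPS. In the libraries labelled AMPKa1-/- it stood at 25.2, 21.4 and 22.6 FPKM in vehicle and at 0.494, 0.395 and 0.378 FPKM in LPS. The groups lay far apart, and the log2 fold change was -3.92 ± 0.30 in WT, adjusted p = 7.0e-12, and -4.08 ± 0.26 with the label AMPKa1-/-, adjusted p = 2.0e-13. Cdc20, which activates the anaphase-promoting complex, fell from 7.81, 16.5 and 10.8 to 0.320 and 0.204 FPKM in WT and from 18.8, 20.1 and 12.6 to 0.132, 0.976 and 0.195 FPKM in the libraries labelled AMPKa1-/- (log2 fold changes -3.28 and -3.68). Its partner in that machinery, the ubiquitin-conjugating enzyme Ube2c, fell by 2.72 and 3.21 on the log2 scale. All 7 kinase and checkpoint genes fell in both genotypes: the mitotic kinases Plk1 (-2.17 and -3.00), Aurka (-1.62 and -1.92) and Aurkb (-2.09 and -2.68), the checkpoint genes Bub1 (-1.13 and -2.14), Bub1b (-2.54 and -3.22) and Mad2l1 (-0.98 and -1.04), and Birc5, the survivin subunit of the complex that holds Aurkb (-2.25 and -2.95; log2 fold changes in WT and in the libraries labelled AMPKa1-/-). Aurkb, the most abundant of them, stood at 7.65, 16.4 and 12.3 FPKM in WT vehicle and 1.38 and 2.69 FPKM in WT LPS, and at 16.1, 18.3 and 15.4 FPKM in vehicle and 1.86, 2.30 and 1.16 FPKM in LPS in the libraries labelled AMPKa1-/-. Mad2l1 stood at 6.32, 7.53 and 8.18 FPKM in vehicle and 3.65 and 2.81 FPKM in LPS in WT. The libraries labelled AMPKa1-/- had it at 7.82, 10.9 and 7.36 FPKM in vehicle and 4.10, 3.81 and 3.13 FPKM in LPS. The vehicle and LPS libraries did not overlap for either gene.

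All 9 spindle and kinetochore genes were called lower as well, 6 of which pass the limit without vehicle. Besides Cenpa these were the motors Kif11 (-1.81 and -2.26), Kif20a (-1.61 and -2.10), Kif23 (-2.21 and -2.77) and Cenpe (-1.37 and -1.92), the microtubule-binding proteins Tpx2 (-1.01 and -1.76), Nusap1 (-2.49 and -3.04) and Prc1 (-1.57 and -2.23), and the kinetochore protein Cenpf. Cenpf was listed at 0 in 4 of the 5 LPS libraries, against 2.07 to 6.15 FPKM in vehicle, so no fold is given. Tpx2 kept the highest level of these genes in LPS, 2.71 and 4.18 FPKM in WT and 2.43, 3.12 and 1.81 FPKM in the others, from 4.93, 11.01 and 8.63 FPKM in WT vehicle and 8.97, 14.4 and 9.04 FPKM in vehicle with the label AMPKa1-/-. In the same LPS libraries Kif11 and Kif23 were at 0.0209 to 0.0661 and 0.0550 to 0.118 FPKM. Ttk, below the limit of 1 FPKM and not tested, showed 1.20 to 3.58 FPKM in vehicle and 0 to 0.0699 FPKM in LPS.

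Among the cyclins and their regulators, the mitotic cyclins fell steeply: Ccnb2 from 5.93, 13.7 and 9.78 to 0.183 and 0.0817 FPKM in WT (-3.19 ± 0.36, adjusted p = 1.8e-08) and from 13.1, 14.4 and 10.4 to 0.236, 0.192 and 0.131 FPKM in the libraries labelled AMPKa1-/- (-3.51 ± 0.32, adjusted p = 2.6e-10), Ccna2 by 2.84 and 3.40, and Ccnb1 by 2.42 and 3.10 on the log2 scale. Foxm1, the transcription factor of mitotic genes, fell by 2.35 and 2.56. Cdk1, the kinase that these cyclins activate, fell less: it stood at 13.4, 22.2 and 18.1 FPKM in WT vehicle and 9.03 and 10.5 FPKM in WT LPS (-0.79 ± 0.21), and at 24.1, 32.4 and 17.8 FPKM in vehicle and 7.43, 7.20 and 6.77 FPKM in LPS in the libraries labelled AMPKa1-/- (-1.62 ± 0.19). E2f1 fell from 16.8, 19.5 and 18.3 to 7.42 and 8.49 FPKM in WT and from 18.6, 20.7 and 18.2 to 8.59, 10.2 and 7.51 FPKM in the others (-1.10 and -1.05), with no overlap. The E-type cyclins moved in opposite directions. Ccne1 rose from 3.12, 3.55 and 4.02 to 7.40 and 16.7 FPKM in WT and from 5.78, 4.76 and 5.23 to 12.2, 12.2 and 28.3 FPKM in the libraries labelled AMPKa1-/- (1.42 ± 0.28 in WT, adjusted p = 9.4e-05, and 1.46 ± 0.25 with the label AMPKa1-/-, adjusted p = 1.2e-05), with the 2 WT LPS libraries far apart but both above every vehicle library. Ccne2 fell by 0.87 and 1.66.

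The 16 genes of DNA replication and S phase were split. Of these 13 fell in each genotype, with a median log2 fold change of -1.005 and -1.49 over the 16. Pcna fell from its vehicle levels to 111 and 115 FPKM in WT and 98.5, 106 and 124 FPKM in the libraries labelled AMPKa1-/- (-2.07 ± 0.16 in WT, adjusted p = 1.0e-11, and -2.09 ± 0.14 with the label AMPKa1-/-, adjusted p = 5.7e-13), and remained the most abundant of the 45 genes. The 6 subunits of the MCM helicase, which act together as 1 ring, did not move together. Mcm7 fell from 20.8, 32.4 and 27.6 to 2.95 and 4.01 FPKM in WT and from 26.7, 43.2 and 23.6 to 3.15, 4.60 and 4.47 FPKM in the libraries labelled AMPKa1-/- (-2.63 and -2.63). Mcm3 stood at 24.8, 29.1 and 28.97 FPKM in vehicle and 35.3 and 36.3 FPKM in LPS in WT. The libraries labelled AMPKa1-/- had it at 31.2, 44.8 and 28.5 FPKM in vehicle and 33.00, 34.5 and 28.4 FPKM in LPS. Mcm3 was called higher in WT (0.37 ± 0.15, adjusted p = 0.042) and not called in the libraries labelled AMPKa1-/- (-0.10 ± 0.14, adjusted p = 0.54). The repeats without single libraries did not follow Mcm3 in this comparison, and the difference between the genotypes in its response was not called. Mcm2 (-1.66 and -1.94), Mcm4 (-1.03 and -1.43), Mcm5 (-1.38 and -1.56) and Mcm6 (-1.27 and -2.12) lay between these subunits. Of the genes of nucleotide supply, the ribonucleotide reductase subunit Rrm2 fell most (-2.62 and -3.43), then thymidine kinase Tk1 (-0.98 and -2.03) and the other reductase subunit Rrm1 (-0.88 and -1.16). Thymidylate synthase Tyms did not fall: it stood at 6.67, 10.1 and 7.81 FPKM in WT vehicle and 11.9 and 12.1 FPKM in WT LPS (0.52 ± 0.17, adjusted p = 0.010), and at 9.06, 13.6 and 9.23 FPKM in vehicle and 11.4, 10.8 and 10.7 FPKM in LPS in the libraries labelled AMPKa1-/- (0.06 ± 0.15, adjusted p = 0.75). The WT rise of Tyms did not pass without WT vehicle replicate 1 (0.40) or WT LPS replicate 3 (0.51). The loading factors Cdc6 (-0.89 and -1.17) and Cdt1 (-0.78 and -0.77), the helicase cofactor Gins2 (-1.11 and -1.07) and Uhrf1, which maintains DNA methylation behind the fork (-0.98 and -1.99), fell, and the chromatin remodeller Hells was not called (-0.01 and -0.62).

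Mki67 rose where nearly all other genes fell. It codes for Ki-67, the nuclear protein that coats mitotic chromosomes and whose staining is used to count dividing cells. Mki67 stood at 3.86, 6.47 and 6.46 FPKM in WT vehicle and at 25.8 and 17.5 FPKM in WT LPS. In the libraries labelled AMPKa1-/- it stood at 6.97, 10.9 and 6.33 FPKM in vehicle and at 16.3, 16.8 and 20.8 FPKM in LPS. All 5 LPS libraries lay above all 6 vehicle libraries, and the log2 fold change was 1.79 ± 0.28 in WT, adjusted p = 3.9e-06, and 1.09 ± 0.25 with the label AMPKa1-/-, adjusted p = 4.1e-04. Top2a, the topoisomerase that untangles sister chromatids and a usual companion of Mki67 in proliferation signatures, went the other way, from 20.97, 37.7 and 36.3 to 12.2 and 15.1 FPKM in WT and from 40.1, 60.7 and 32.1 to 9.90, 12.9 and 8.60 FPKM in the libraries labelled AMPKa1-/- (-1.12 and -1.95). No exon of Mki67 is shared with another annotated gene. Pttg1, securin, the inhibitor of sister chromatid separation, was not called (0.51 ± 0.31, adjusted p = 0.17 in WT and -0.27 ± 0.28, adjusted p = 0.40 in the libraries labelled AMPKa1-/-), at 6.88, 12.7 and 9.75 FPKM in vehicle and 10.6 and 18.2 FPKM in LPS in WT. The libraries labelled AMPKa1-/- had it at 13.5, 12.05 and 6.86 FPKM in vehicle and 10.04, 6.79 and 8.89 FPKM in LPS.

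**Figure D2:**
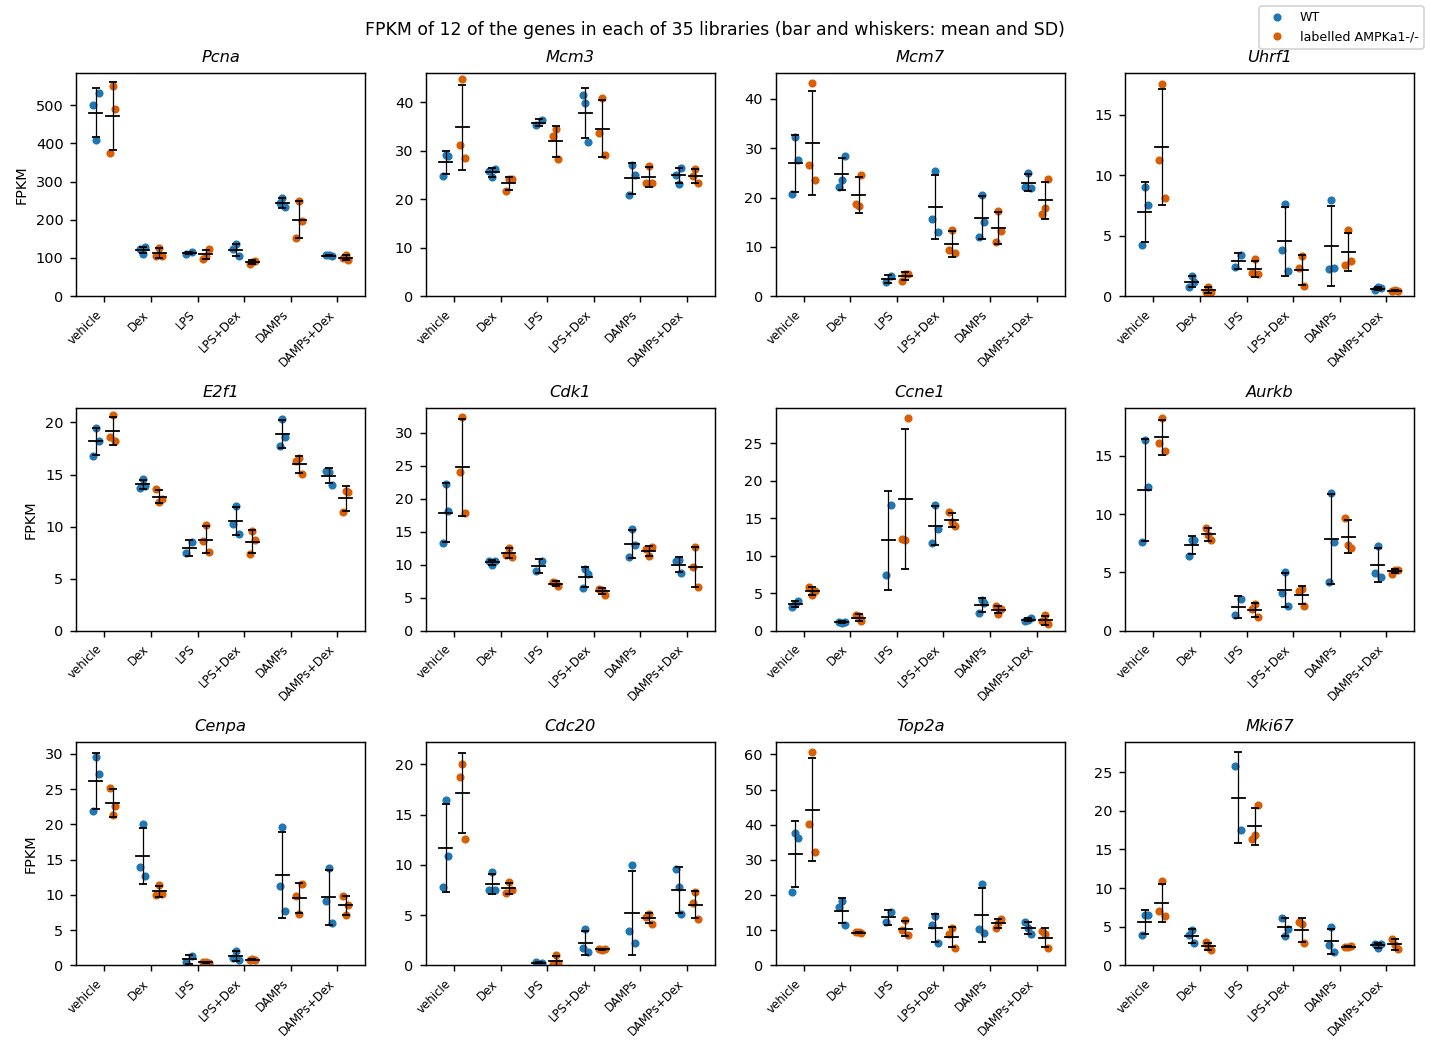
FPKM of 12 of the genes in each of the 35 libraries by treatment; points are libraries, colours the genotype label, bars and whiskers the mean and SD of each group (n = 3, and 2 for WT LPS). Pcna falls from 376 to 549 FPKM in vehicle to 84.7 to 137 FPKM in every group but DAMPs, Cenpa and Cdc20 come near 0 in LPS, Mcm3 does not follow Mcm7, and Mki67 and Ccne1 rise in LPS.

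Dex alone lowered genes of the program in both genotypes and raised none. In WT 25 of the 45 genes were called lower and 0 higher, against 14.9% and 15.9% of all genes (30.9% in either direction). In the libraries labelled AMPKa1-/- 41 were lower and 0 higher, against 16.0% and 11.9% (27.9%). All 25 were among these 41, and 22 and 37 of the called genes pass the limit without vehicle. All 45 values were negative in each genotype, with 31 and 42 lower at an unadjusted p under 0.05. Of all 11354 genes in WT, 5109 had negative values and 2173 were lower at that threshold. The matching numbers of all genes with the label AMPKa1-/- are not given here. The medians were -0.64 and -1.21, against 0.05 and -0.05 for all genes. The WT count depended on single libraries: it was 9 without WT vehicle replicate 2, 14 without WT vehicle replicate 3 and 14 without WT Dex replicate 3, while it was 29 without WT vehicle replicate 1. It also fell by over 1.5 times with a pseudocount of 0.1, as given in the closing section. The libraries did not overlap for 26 and 41 lower genes, against 22.1% and 26.1% of all genes.

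Genes of DNA replication held the largest falls with Dex on the log2(FPKM + 1) scale. Uhrf1 went from 4.25, 9.03 and 7.57 to 0.779, 1.70 and 1.15 FPKM in WT and from 11.3, 17.6 and 8.13 to 0.381, 0.795 and 0.355 FPKM in the libraries labelled AMPKa1-/- (-1.82 ± 0.37 in WT, adjusted p = 4.2e-04, and -3.09 ± 0.37 with the label AMPKa1-/-, adjusted p = 2.6e-07). Pcna went to 125, 111 and 128 FPKM in WT and 105, 127 and 106 FPKM in the others (-1.97 and -2.04), near its LPS level, and the vehicle and Dex libraries lay far apart. Mcm5 went from 7.45, 14.5 and 10.3 to 2.75, 2.24 and 2.78 FPKM in WT and from 12.7, 21.5 and 10.7 to 2.54, 2.95 and 2.35 FPKM in the others (-1.67 and -2.09). Rrm2 stood at 6.61, 17.3 and 12.3 FPKM in vehicle and 2.82, 3.47 and 2.98 FPKM in Dex in WT. With the label AMPKa1-/- it stood at 16.1, 24.6 and 15.2 FPKM in vehicle and 2.04, 2.66 and 1.91 FPKM in Dex (log2 fold changes -1.59 and -2.59 in the 2 genotypes). Tk1 stood at 9.27, 27.2 and 14.6 FPKM in vehicle and 6.06, 6.74 and 4.29 FPKM in Dex in WT. With the label AMPKa1-/- it stood at 24.3, 34.05 and 21.6 FPKM in vehicle and 5.20, 3.998 and 2.19 FPKM in Dex (log2 fold changes -1.32 and -2.55 in the 2 genotypes). Mcm6 (-1.24 and -1.88), Mcm2 (-0.93 and -1.62), Gins2 (-0.96 and -1.01) and Cdc6 (-0.68 and -1.02) fell in both genotypes. The MCM ring was again uneven, but in another order than with LPS: Mcm7, the subunit with the largest fall after LPS, was not called after Dex in either genotype (-0.10 and -0.54; 22.2, 23.6 and 28.5 FPKM in WT), and Mcm3 and Mcm4 were called only in the libraries labelled AMPKa1-/- (-0.53 and -0.60, with -0.10 and -0.21 in WT). Rrm1, Tyms and Hells were likewise called in that genotype alone (-0.99, -0.73 and -1.20). The loading factor Cdt1 was called in neither (-0.09 and -0.26).

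Of the control genes, both E-type cyclins fell with Dex, Ccne1 from between 3.12 and 5.78 FPKM in vehicle to between 1.05 and 2.09 FPKM in Dex (-1.07 and -1.19) and Ccne2 by 0.58 and 0.90. E2f1, Ccna2, Ccnb2, Cdk1 and Foxm1 fell in both genotypes, and Ccnb1 in the libraries labelled AMPKa1-/- (-1.21; -0.46 in WT, not called). Of the mitotic genes, Cenpa stood at 13.9, 20.04 and 12.6 FPKM in WT Dex and 9.98, 11.4 and 10.1 FPKM in the others (-0.73 and -1.07), and the medians over the 9 spindle genes were -0.64 and -1.53. In WT the test called Bub1b and Birc5 among the 7 kinase and checkpoint genes and Cenpa, Kif11, Kif20a, Kif23, Tpx2 and Nusap1 among the 9 spindle genes; with the label AMPKa1-/- it called all 16. The exit genes Ube2c and Pttg1 were called in neither genotype (Ube2c -0.14 and -0.52, Pttg1 -0.29 and -0.44), and Cdc20 with the label AMPKa1-/- alone (-1.04). Mki67 fell with that label (-1.37 ± 0.25, adjusted p = 1.1e-04) and was not called in WT (-0.45 ± 0.25, adjusted p = 0.17). Top2a fell in both (-0.96 and -2.09).

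Adding Dex to LPS did not lower the program further as a whole; it raised part of it and lowered 3 genes. Relative to LPS alone, the test called 12 genes up and 3 down in WT, against 16.6% and 17.5% of all genes (34.1% in either direction), and 8 up and 3 down with the label AMPKa1-/-, against 19.3% and 18.4% (37.7%). The share that rose, 26.7% and 17.8%, was near those backgrounds with that label and above it in WT, and the medians were 0.40 and 0.26, against -0.03 and 0.01 for all genes. The 6 genes that rose in both genotypes were Mcm7, Rrm1, Rrm2, Tk1, Cdc20 and Kif23. Mcm7 went from 2.95 and 4.01 FPKM in WT LPS to 15.6, 25.4 and 13.1 FPKM in WT LPS + Dex. With the label AMPKa1-/- it went from 3.15, 4.60 and 4.47 to 9.44, 13.5 and 8.82 FPKM. The libraries did not overlap (2.04 ± 0.27 in WT, adjusted p = 5.6e-07, and 1.18 ± 0.24 with the label AMPKa1-/-, adjusted p = 2.2e-04). Kif23, a motor of the central spindle, went from 0.0550 and 0.0736 to 1.14, 1.27 and 1.10 FPKM in WT and from 0.0930, 0.104 and 0.118 to 1.94, 3.02 and 4.22 FPKM with the label AMPKa1-/- (1.03 and 1.84). Rrm2 rose by 1.39 and 0.92, Tk1 by 0.99 and 1.03, Rrm1 by 0.86 and 0.75, and Cdc20 by 1.29 and 0.91 on the log2 scale. Mcm2, Mcm5, Cdc6, E2f1, Aurka and Mad2l1 were called higher in WT alone and Ccne2 and Plk1 with the label AMPKa1-/- alone. The WT count of 15 was 9 without WT LPS replicate 2, 8 without WT LPS+Dex replicate 2, 7 with the spread of the compared groups alone and 24 with a pseudocount of 0.1. The count of 11 with the label AMPKa1-/- was 7 without KO LPS replicate 1 or 3 (KO being the label AMPKa1-/-) and 6 without KO LPS+Dex replicate 2.

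The 3 genes that Dex lowered on top of LPS were the same in both genotypes: Mki67, Pttg1 and Tyms, which were among the 6 genes that LPS had not lowered. LPS against vehicle and LPS + Dex against LPS use the same LPS libraries. Opposite moves of a gene in these 2 comparisons, here and for the genes that rose, are therefore not independent of each other. Mki67 went from the LPS levels above to 6.15, 3.83 and 4.73 FPKM in WT and 5.63, 5.36 and 2.83 FPKM with the label AMPKa1-/- (-1.94 ± 0.28 in WT, adjusted p = 2.7e-06, and -1.79 ± 0.25 with the label AMPKa1-/-, adjusted p = 1.2e-06), within or below the range of the vehicle libraries. Pttg1 went from 10.6 and 18.2 to 3.30, 5.68 and 4.50 FPKM in WT and from 10.04, 6.79 and 8.89 to 3.95, 4.91 and 2.59 FPKM with that label (-1.47 and -1.01). Tyms went to 6.03, 6.59 and 5.81 FPKM in WT and 3.68, 4.31 and 4.40 FPKM with the label AMPKa1-/- (-0.87 and -1.22). Ccne1, the other gene that LPS raised in both genotypes, did not follow: it stayed at 11.7, 16.8 and 13.5 FPKM in WT and 15.8, 14.5 and 13.99 FPKM with the label AMPKa1-/- (0.29 and -0.13, not called).

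With LPS + Dex most of the genes remained below vehicle. Against vehicle, 33 genes were lower and 2 higher in WT, against 37.0% and 17.2% of all genes (54.2% in either direction), and 41 were lower and 1 higher with the label AMPKa1-/-, against 40.8% and 16.7% (57.4%). Of the 41 genes that pass the limit without vehicle, 30 and 37 were lower. In both genotypes all 9 spindle genes and all 3 exit genes were lower, as were 6 and 7 of the 7 kinase and checkpoint genes and 7 of the 8 control genes. On the log2(FPKM + 1) scale the 3 largest falls of the 45 were those of Cenpa (-3.62 and -3.77), Ccnb2 (-2.29 and -3.10) and Ccna2 (-2.22 and -2.94). Of the 16 genes of S phase, 7 were lower in WT, near the share of all genes above, and 13 with the label AMPKa1-/-, with medians of -0.52 and -1.20. Pcna stayed low, at 122, 137 and 105 FPKM in WT and 84.7, 89.8 and 93.2 FPKM with the label AMPKa1-/- (-1.98 and -2.37). Ccne1 was higher in both (1.71 and 1.33) and Mcm3 in WT (0.43; 41.6, 39.8 and 31.8 FPKM), where Mcm3 did not pass without WT vehicle replicate 1 (0.36).

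**Figure D3:**
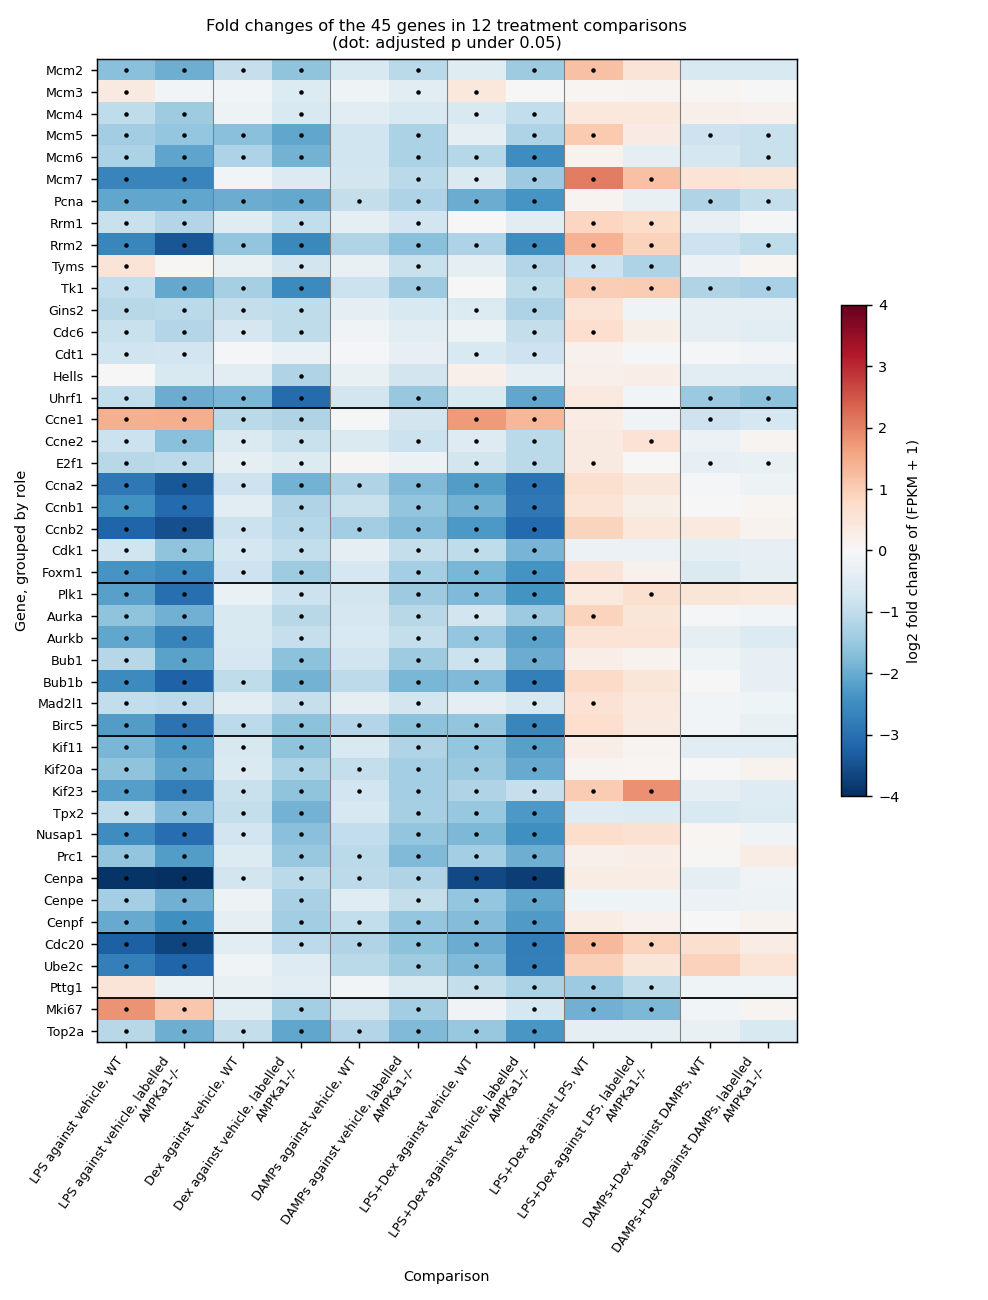
Log2 fold changes of (FPKM + 1) for the 45 genes (rows, grouped by role from replication at the top to Mki67 and Top2a at the bottom) in 12 treatment comparisons (columns, WT and labelled AMPKa1-/- side by side); blue is lower, red higher, and a dot marks an adjusted p under 0.05. LPS lowers 39 genes in each genotype and Dex on DAMPs lowers 6 and 8, near the 12.6% and 12.2% of all genes called lower there.

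DAMPs moved few genes in these cells, and those of the cell cycle were among them. In WT, 11 of the 45 genes were lower and 0 higher, against 0.793% and 1.22% of all genes (2.01% in either direction). Under the label AMPKa1-/- 37 were lower and 0 higher, against 2.24% and 1.89% (4.13%). The 11 genes were all among the 37, and made up 11 of the 90 genes that DAMPs lowered in WT, as the 37 did of 254. The medians were -0.74 and -1.25, against -0.03 and -0.07. At an unadjusted p under 0.05, 34 of the 45 genes were lower in WT, against 605 of all 11354 genes. Of the called genes, 9 and 34 pass the limit without vehicle. The WT count rested on single libraries: it was 26 without WT DAMPs replicate 2, whose median lay within the range of the vehicle libraries, and 1 without WT DAMPs replicate 1 or 3 or WT vehicle replicate 2 or 3. It was 0 when the spread was taken from the 2 groups alone. The medians over the 45 genes were 2.04, 3.03 and 1.98 in the WT DAMPs libraries and 2.65, 3.48 and 3.24 in WT vehicle, on the log2(FPKM + 1) scale. The 2 groups overlapped. With the label AMPKa1-/- the count was 21 without KO vehicle replicate 2. The libraries did not overlap for 7 and 42 lower genes, against 7.06% and 14.4% of all genes.

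Of the 11 genes called in WT, 10 act in mitosis or its preparation (Ccna2, Ccnb2, Birc5, Kif20a, Kif23, Prc1, Cenpa, Cenpf, Cdc20 and Top2a), and the other was Pcna. Ccnb2 stood at 1.89, 7.68 and 1.37 FPKM in WT DAMPs, with replicate 2 inside the range of the vehicle values above, and at 3.85, 2.87 and 2.64 FPKM with the label AMPKa1-/- (-1.40 ± 0.32 in WT, adjusted p = 0.019, and -1.73 ± 0.32 with the label AMPKa1-/-, adjusted p = 0.0014). Ccna2 stood at 4.86, 10.6 and 8.58 FPKM in vehicle and 1.80, 5.60 and 1.85 FPKM in DAMPs in WT, where the groups overlapped, and at 10.9, 15.8 and 7.91 FPKM in vehicle and 2.25, 2.90 and 2.56 FPKM in DAMPs with the label AMPKa1-/-, where they did not (-1.21 and -1.77). Bub1b, the largest fall with that label on the log2(FPKM + 1) scale though not in mean FPKM, went from 11.5, 17.1 and 9.62 to 1.93, 3.60 and 3.08 FPKM (-1.82 ± 0.34, adjusted p = 0.0013), and Prc1, which bundles the microtubules of the central spindle, from 6.35, 9.32 and 6.21 to 1.18, 1.67 and 1.41 FPKM (-1.76 ± 0.25). Pcna was lower in every library of both genotypes, at 244, 257 and 233 FPKM in WT and 153, 249.95 and 198 FPKM with the label AMPKa1-/- (-0.96 ± 0.14 in WT, adjusted p = 6.4e-04, and -1.24 ± 0.14 with the label AMPKa1-/-, adjusted p = 1.4e-05). The test called with the label AMPKa1-/- all 7 kinase and checkpoint genes, all 9 spindle genes, Cdc20 and Ube2c, Mki67 and Top2a, 6 of the 8 control genes and 11 of the 16 genes of S phase. E2f1, Ccne1, Cdt1, Cdc6, Hells, Gins2, Mcm4 and Pttg1 were not called there, E2f1 standing at 17.7, 20.3 and 18.6 FPKM in WT and 16.3, 16.6 and 15.1 FPKM with the label AMPKa1-/-. Mki67, which LPS raised, was lower after DAMPs with the label AMPKa1-/- (-1.38 ± 0.25, adjusted p = 0.0010; 2.34, 2.39 and 2.47 FPKM) and not called in WT (-0.74 ± 0.25, adjusted p = 0.16).

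When Dex was added to DAMPs, the share of the 45 genes called lower was near that of all genes. Of the 45 genes, 6 were lower in WT and 8 with the label AMPKa1-/-, none was higher, and the backgrounds were 12.6% and 12.2% lower and 11.7% and 13.1% higher (24.3% and 25.3% in either direction). The 6 were shared: Uhrf1, Pcna, Tk1, Mcm5, Ccne1 and E2f1; Mcm6 and Rrm2 were added with the label AMPKa1-/-. As a share of the 45 genes, 13.3% and 17.8%, these counts were near the background, and the medians (-0.23 and -0.20) stood against 0.03 and 0.07 for all genes. Uhrf1 went from 2.22, 7.98 and 2.31 to 0.480, 0.783 and 0.639 FPKM in WT and from 2.56, 5.50 and 2.90 to 0.439, 0.504 and 0.418 FPKM with the label AMPKa1-/- (-1.49 ± 0.37 in WT, adjusted p = 0.0031, and -1.63 ± 0.37 with the label AMPKa1-/-, adjusted p = 0.0013). Pcna went to 108, 107 and 105 FPKM in WT and 100.3, 108 and 94.5 FPKM with the label AMPKa1-/- (-1.19 and -0.96), with both groups below every DAMPs library. Tk1 went from 5.74, 14.9 and 5.93 to 2.92, 1.95 and 4.39 FPKM and from 8.99, 11.2 and 7.20 to 2.59, 3.34 and 3.38 FPKM (-1.19 and -1.29). E2f1, which DAMPs alone did not call, fell by 0.32 and 0.31. None of the 19 genes of kinases, spindle and exit was called in either genotype, and a difference between the roles was not tested; Ube2c (0.92 and 0.55), Cdc20 (0.63 and 0.29) and Plk1 (0.49 and 0.44) had positive values that did not pass the test. The count of 8 was 5 without KO DAMPs replicate 1 and 4 without KO DAMPs replicate 2 or KO DAMPs+Dex replicate 1 or 3. It also fell by over 1.5 times without a filter, as did the WT count of 6 with the spread of the compared groups alone.

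Comparing the genotype labels within each treatment, few of the 45 genes differed. In vehicle 0 were called, against 0.432% of all genes, although 42 of the 45 values were positive (median 0.42, higher with the label AMPKa1-/-) and 8 genes were higher at an unadjusted p under 0.05, Mcm3, Tyms, Tk1, Cdk1, Plk1, Bub1, Kif11 and Kif23. That share of all genes is for adjusted calls, and the unadjusted counts in this paragraph have no such share beside them. Groups did not overlap for Ccne1, Plk1, Kif23 and Prc1, against 8.10% of all genes. WT vehicle replicate 1, with its low levels, is part of this comparison. In Dex 2 genes were lower with the label AMPKa1-/-, against 15.5% of all genes: the kinetochore motor Cenpe (4.88, 5.07 and 3.37 FPKM in WT and 2.10, 2.45 and 1.80 FPKM with the label; -0.79 ± 0.22, adjusted p = 0.016) and the spindle motor Kif11 (1.63, 1.86 and 0.834 FPKM in WT and 0.618, 0.646 and 0.586 FPKM with the label AMPKa1-/-; -0.57 ± 0.20, adjusted p = 0.036). At an unadjusted p under 0.05, 5 of the 45 genes were lower there and 0 higher (37 of the 45 values negative, median -0.22). The count of 2 was 0 to 1 without KO Dex replicate 1, 2 or 3 or WT Dex replicate 1 or 2. In LPS + Dex, Kif23 was higher with the label (0.87 ± 0.21, adjusted p = 0.044), against 0.335% of all genes called higher (0.669% in either direction), and no longer passed without WT LPS+Dex replicate 1, 2 or 3 or KO LPS+Dex replicate 2 or 3. The other values there went mostly the opposite way: 42 of the 45 were negative (median -0.30), and 7 genes were lower at an unadjusted p under 0.05. In LPS, DAMPs and DAMPs + Dex 0 genes were called by limma, against 0.766%, 0.731% and 1.06% in either direction (0.414%, 0.449% and 0.555% higher), and 2, 2 and 0 had an unadjusted p under 0.05. The libraries of the genotypes did not overlap for 16 lower and 2 higher genes in Dex, against 30.7% and 18.8% of all genes. In LPS they did not overlap for 8 lower and 3 higher genes, against 20.9% and 9.26%.

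The larger counts with the label AMPKa1-/- in Dex (41 against 25) and DAMPs (37 against 11) were tested directly as differences of the responses. Not 1 of the 45 genes, and 0 of all 11354 (0.00%), passed for LPS, Dex or DAMPs against vehicle or for Dex added to LPS or DAMPs, by limma. At an unadjusted p under 0.05, 15 of the 45 genes fell more with Dex in the libraries labelled AMPKa1-/-, among them Kif11 (-0.98 ± 0.28, adjusted p = 0.19), Cenpe (-1.08 ± 0.32, adjusted p = 0.19) and Mki67 (-0.93 ± 0.35, adjusted p = 0.19). At that threshold 6 fell more with LPS, 1 (Tyms) with DAMPs, 1 rose and 3 fell with Dex added to LPS, and 0 moved with Dex added to DAMPs. The differences were negative for all 45 genes with Dex and with DAMPs and for 40 with LPS (medians -0.59, -0.47 and -0.49). They were negative for 30 and 26 genes with Dex added to LPS and to DAMPs. Neither the unadjusted counts nor these signs have a share of all genes beside them, so they are not read as particular to the 45 genes. Smaller median falls go with the smaller WT counts: -0.64 in WT against -1.21 with Dex, and -0.74 against -1.25 with DAMPs. The library medians also spread more in WT vehicle and WT DAMPs, with SDs of 0.427 and 0.591, against 0.271 and 0.0199 in the same groups labelled AMPKa1-/-. The fit took 1 spread per gene from the 12 groups together, and the part of the WT spread in the counts was not tested.

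Genes of the same pathway outside the 45 were counted from 4 fixed lists. Of 37 other genes of replication and repair, LPS lowered 24 in WT and 32 with the label AMPKa1-/- and raised 3 and 3 (medians -0.66 and -0.87), Dex lowered 12 and 20 and raised 1 and 0, and DAMPs lowered 0 and 11. Dex added to LPS raised 15 and 10 and lowered 3 and 5, and Dex added to DAMPs raised 2 and 3 and lowered 4 and 5. Of 36 other genes of mitosis, LPS lowered 31 and 33 and raised none (medians -1.48 and -2.03), Dex lowered 12 and 30 and raised 2 and 0, and DAMPs lowered 7 and 28. Dex added to LPS raised 7 and 8 and lowered 0 and 1, and Dex added to DAMPs lowered 1 and 2 and raised 0 and 1. Of all genes, LPS lowered 35.8% and 44.1%, Dex 14.9% and 16.0%, DAMPs 0.793% and 2.24%, and Dex added to DAMPs 12.6% and 12.2%, while Dex added to LPS raised 16.6% and 19.3%. In the other directions LPS raised 19.9% and 20.2% and Dex 15.9% and 11.9%, Dex added to LPS lowered 17.5% and 18.4%, and Dex added to DAMPs raised 11.7% and 13.1%. Beside these shares, the counts of mitosis genes that Dex raised on top of LPS and of replication genes that it lowered on top of DAMPs were near the background. The exceptions in replication after LPS were led by Cdc25a, the phosphatase that activates the kinase of G1/S, and Pola2, a subunit of DNA polymerase α. Cdc25a rose from between 6.03 and 8.84 FPKM in vehicle to between 21.8 and 27.7 FPKM in LPS (1.79 and 1.42) and Pola2 from between 7.51 and 10.1 FPKM in vehicle to between 19.1 and 28.2 FPKM in LPS (1.45 and 1.23), and Dex lowered both on top of LPS (Cdc25a -0.81 and -0.71, Pola2 -1.04 and -0.99). Cdc25b, the phosphatase that starts mitosis, had the largest fall of the other mitosis genes on the log2(FPKM + 1) scale, from between 13.8 and 21.4 FPKM in vehicle to between 0.304 and 1.36 FPKM in LPS (-3.06 and -3.66). Dut, which keeps uracil out of DNA, fell by 2.08 and 2.49 with LPS, Rad51ap1 by 1.04 and 2.02 with Dex, and the spindle gene Kif2c by 1.07 and 1.84 with DAMPs.

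Upstream, the D-type cyclins moved in different directions. Ccnd1 stood at 30.4, 46.3 and 43.7 FPKM in WT vehicle, 1.01 and 1.16 FPKM in WT LPS and 3.72, 2.92 and 4.83 FPKM in WT Dex. With the label AMPKa1-/- it stood at 45.8, 80.00 and 37.97, at 0.692, 0.871 and 0.239 and at 1.82, 2.58 and 2.19 FPKM. It fell with LPS (-4.28 ± 0.33 in WT, adjusted p = 1.1e-11, and -5.07 ± 0.30 with the label AMPKa1-/-, adjusted p = 2.1e-14), with Dex (-3.09 and -4.05) and with Dex added to DAMPs (-2.67 and -2.93). DAMPs alone lowered it with the label AMPKa1-/- (-1.17 ± 0.30, adjusted p = 0.017). Ccnd2 did the reverse with LPS, from 1.59, 1.31 and 0.855 to 252 and 299 FPKM in WT and from 0.416, 0.800 and 0.608 to 103, 134 and 286 FPKM with the label AMPKa1-/- (6.95 ± 0.34 in WT, adjusted p = 6.7e-16, and 6.64 ± 0.30 with the label AMPKa1-/-, adjusted p = 1.1e-16), and Dex added to LPS brought it to 3.70, 3.78 and 1.25 FPKM in WT and 1.25, 2.99 and 0.859 FPKM with the label AMPKa1-/- (-6.22 and -5.96). Ccnd3 rose with LPS (1.24 and 1.01) and with Dex (0.91 and 0.51) and was highest in LPS + Dex, at 165, 164 and 128 FPKM in WT and 142, 160.00 and 162 FPKM with the label AMPKa1-/-. Myc, which drives entry into the cycle, was lower with LPS (-1.25 and -1.89), Dex (-1.59 and -1.90) and DAMPs (-1.03 and -0.93). The list of 17 tested genes of G1 entry counted 5 higher and 8 lower with LPS in WT and 5 and 10 with the label AMPKa1-/-, 1 higher and 3 and 5 lower with Dex. It counted 0 higher and 1 and 3 lower with DAMPs, 4 and 5 higher and 4 and 3 lower with Dex added to LPS, and 1 higher and 4 lower in each with Dex added to DAMPs. Each of these counts lay within 3 genes of the number that the shares of all genes given above would make of 17. That margin says little for DAMPs, which lowered 1 and 3 of the 17 against 0.793% and 2.24% of all genes.

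**Figure D4:**
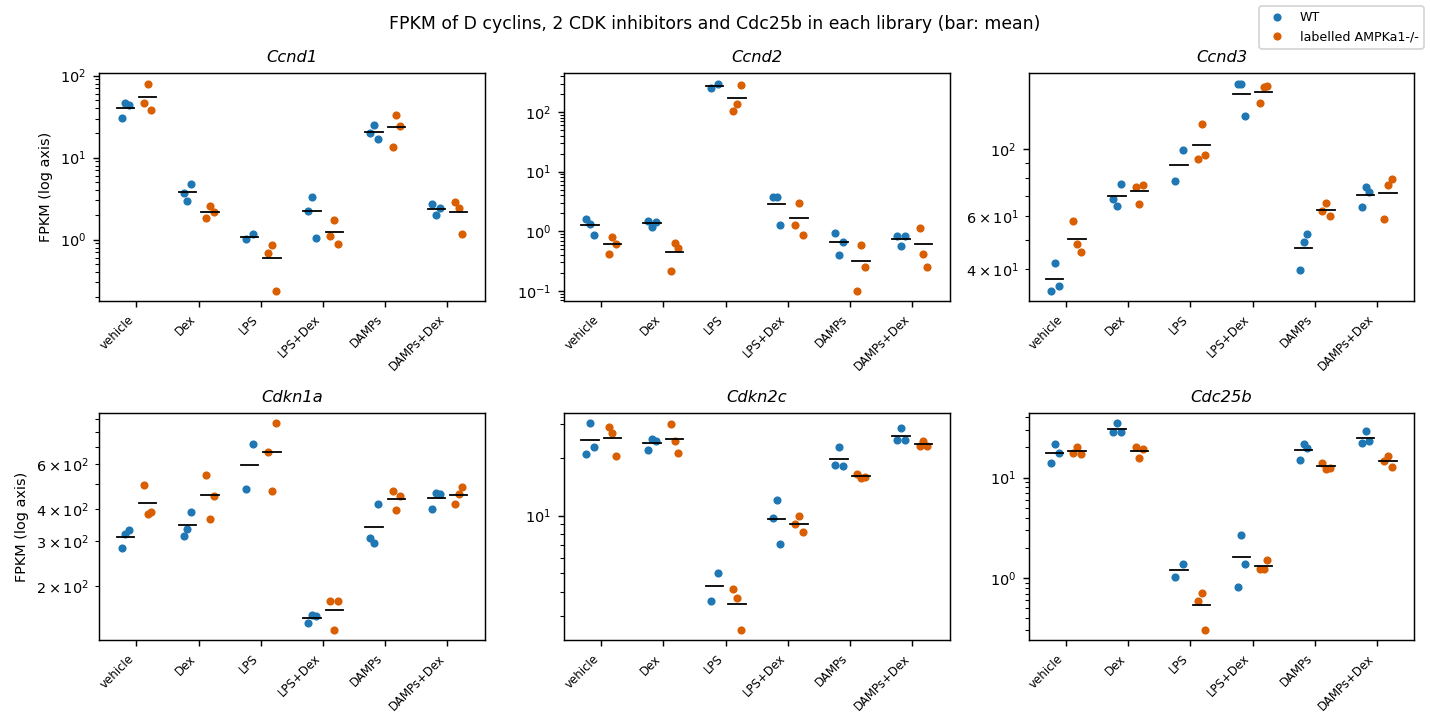
FPKM, on a log axis, of the D-type cyclins Ccnd1, Ccnd2 and Ccnd3, the CDK inhibitors Cdkn1a and Cdkn2c and the phosphatase Cdc25b in each of the 35 libraries by treatment; points are libraries, colours the genotype label, bars the group means. Ccnd1 falls and Ccnd2 rises in LPS, Dex brings Ccnd2 and Cdkn1a down in LPS + Dex, and Ccnd3 is highest there.

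The inhibitors of the cycle did not move as 1 group. Of the 20 on the list, LPS raised 3 in each genotype and lowered 9 and 8, near the shares of all genes (19.9% and 20.2% higher, 35.8% and 44.1% lower). Cdkn1a (p21) rose from 281, 319 and 331 to 478 and 715 FPKM in WT and from 496, 382 and 391 to 666, 472 and 868 FPKM with the label AMPKa1-/- (0.91 ± 0.20 in WT, adjusted p = 3.6e-04, and 0.63 ± 0.18 with the label AMPKa1-/-, adjusted p = 0.0037), and the stress gene Gadd45b (3.18 and 3.32) and the antiproliferative gene Btg1 (1.10 and 0.88) rose too. Cdkn2c, an inhibitor of the D cyclin kinases, fell from between 20.6 and 30.5 FPKM in vehicle to between 2.53 and 4.998 FPKM in LPS (-2.28 and -2.58). Dex added to LPS lowered Cdkn1a to 143, 155 and 153 FPKM in WT and 175, 135 and 176 FPKM with the label AMPKa1-/-, below every vehicle library (-1.95 and -2.01), and raised Cdkn2c (0.99 and 1.19). Dex alone raised 6 and 2 of the 20 and lowered 3 and 3 (15.9% and 11.9% of all genes higher, 14.9% and 16.0% lower). Added to LPS, it raised 2 and 3 and lowered 5 and 5 (16.6% and 19.3% higher, 17.5% and 18.4% lower). With Dex alone Cdkn2b, another inhibitor of the D cyclin kinases, was lower (-1.64 and -1.84), and Cdkn1b (p27) was higher in WT (0.73 ± 0.20, adjusted p = 0.0076) and not called with the label AMPKa1-/- (0.34 ± 0.20, adjusted p = 0.23). With DAMPs 1 gene of the list was lower in each genotype, Cdkn2b in WT (-0.87) and Cdkn2c with the label AMPKa1-/- (-0.63). Dex added to DAMPs raised 2 and 3 and lowered 2 and 3, near the shares of all genes (11.7% and 13.1% higher, 12.6% and 12.2% lower), among them Cdkn2d (0.85 and 0.57) and Cdkn1b (0.64 and 0.57) upward and Gadd45b (-0.79 and -1.11) downward.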

How the data were processed

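RNA-seq of BMDMs was used as deposited: 1 table of FPKM values per library, which the authors computed from read counts. The submitters' processing notes name Bowtie2 2.2.3, TopHat2 2.0.12, HTSeq 0.6.1 and DESeq2, with mouse build GRCm38 (mm10); the sources used here give no annotation release. Symbols and coordinates came from GENCODE M21 (GRCm38), which named 46488 of the 47069 identifiers. Counts were not tested, since only 55.3% to 63.9% of low genes gave whole fragments (within 0.001). Promoters came from RefSeq (GRCm38.p6), 1 per gene, at the most upstream start.

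The test was limma 3.58.1 (R 4.3.3) with a trended prior on log2(FPKM + 1), without further normalization, over the 12 groups together (23 residual degrees of freedom), for genes with a mean of at least 1 FPKM; p-values were adjusted by Benjamini-Hochberg over 11354 genes at 0.05. Of 23 comparisons, 12 were of treatments, 6 of genotypes and 5 of genotype differences in a response; errors of fold changes are SEs. The fit was also run on simulated data, the outcome of which is not given here. Replicates correlated at 0.967 to 0.993, and no 2 libraries shared values. The genes, lists and comparisons were chosen with earlier results of these data known. Named in full were the 2 most abundant genes of each role, Mki67 and, per comparison, the 3 called genes with the largest rise and fall, and up to 3 genes of each other list. Among comparisons with 3 pairs, same-numbered libraries deviated together in every pair (correlation over 0.1, a hint from the data) for 4 comparisons with the label AMPKa1-/- (LPS, Dex and LPS + Dex against vehicle, LPS + Dex against LPS) and for the genotypes in LPS + Dex. Where only 2 pairs existed, both also lay over 0.1 for LPS + Dex against LPS in WT (0.113 and 0.429) and for the genotypes in LPS (0.112 and 0.134). Tables and plots used Python 3.11.15, pandas 2.3.3, numpy 2.4.6 and matplotlib 3.10.9.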

Additional observations from a re-analysis of the deposited data

How the results depend on the processing

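Of 161 alternatives other than leaving out a library, 135 kept the number of the 45 genes called within 1.5 times of the reported one, and 26 did not. No fold change of a named gene reversed in 658 repeats; 60 of them, in 13 of 53 results, no longer passed the threshold, among them Ccna2, Ccnb2 and Cdc20 with DAMPs in WT, Kif11 and Cenpe between the genotypes in Dex, and Kif23 in LPS + Dex. With a pseudocount of 0.1 the WT counts were 16 for Dex, 24 for LPS + Dex against LPS and 4 for DAMPs, and those of the genotypes were 0 in Dex and 0 in LPS + Dex. Without a filter they were 3 for DAMPs in WT, 5 for DAMPs + Dex against DAMPs with the label AMPKa1-/-, and 1 and 0 for the genotypes in Dex and LPS + Dex. A mean of at least 5 FPKM left 22 of the genes to test, and the WT counts were 21 (LPS), 11 (Dex), 15 (LPS + Dex against vehicle) and 4 (DAMPs), those with the label AMPKa1-/- 19, 19, 20 and 16, and those of the genotypes 0 in Dex and 0 in LPS + Dex. Centring or quantile normalization gave 1 for the genotypes in Dex. With the spread taken from the compared groups alone the WT counts were 7 for LPS + Dex against LPS, 0 for DAMPs and 3 for DAMPs + Dex against DAMPs, and those of the genotypes were 4 in Dex and 0 in LPS + Dex. The cause of these shifts was not tested, apart from the smaller number of genes at 5 FPKM.

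With the replicate number as a block no count moved by over 1.5 times: it was 43, 28, 22, 36, 13 and 9 in WT and 41, 42, 12, 42, 37 and 9 with the label AMPKa1-/- for LPS, Dex, LPS + Dex against LPS, LPS + Dex against vehicle, DAMPs, and DAMPs + Dex against DAMPs, and 3 and 1 for the genotypes in Dex and LPS + Dex.

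Leaving out each library in turn moved 28 of 163 counts by over 1.5 times, and a single remaining library was assumed to have the spread of the others. The counts ranged in WT from 37 to 42 (LPS), 9 to 29 (Dex), 8 to 18 (LPS + Dex against LPS), 28 to 37 (LPS + Dex against vehicle), 1 to 26 (DAMPs) and 4 to 7 (DAMPs + Dex against DAMPs). With the label AMPKa1-/- they ranged from 41 to 41, 37 to 41, 6 to 10, 39 to 43, 21 to 36 and 4 to 8. They ranged from 0 to 3 and 0 to 1 for the genotypes in Dex and LPS + Dex and were 0 for the genotypes in the other treatments and for all 5 differences of response. Depth limits the genes near 1 FPKM, and 2 or 3 libraries per group limit all counts.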
